A study of Homo sapiens with 12 samples.

Results

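Growth differentiation factor 15 (GDF15) was followed together with 9 relatives of the TGF-beta superfamily. These were the activin beta subunits INHBA, INHBB and INHBE, the TGF-beta isoforms TGFB1, TGFB2 and TGFB3, the bone morphogenetic proteins BMP2 and BMP4, and follistatin (FST), which binds activins and is the only one of the 10 that is not a ligand. The 10 genes were taken by symbol out of 58735 genes in the count table. All 10 were in the table, and 9 of them had enough reads to be tested. INHBB did not. In GENCODE release 29 on GRCh38 the genes span GDF15 (chr19:18374731-18389176, plus strand), INHBA (chr7:41667168-41705834, minus strand), INHBB (chr2:120346143-120351808, plus strand), INHBE (chr12:57452323-57459280, plus strand). The TGF-beta isoforms span TGFB1 (chr19:41301587-41353911, minus strand), TGFB2 (chr1:218346235-218444619, plus strand) and TGFB3 (chr14:75958099-75982991, minus strand), and the remaining genes span BMP2 (chr20:6767664-6780280, plus strand), BMP4 (chr14:53949736-53958761, minus strand) and FST (chr5:53480409-53487134, plus strand).

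The cells were ES2, a human ovarian cancer line, sequenced as poly(A) RNA in 12 libraries. In every library, controls included, the endogenous FDX2 gene had been knocked out by genome editing and an editing-resistant, HA-tagged FDX2 was driven by a TetON promoter, so that FDX2-HA was made only while doxycycline (Doxy) was in the medium. FDX2 is a mitochondrial ferredoxin that supplies electrons for iron-sulfur cluster assembly. There were 4 conditions of 3 libraries each, described by the submitters as biological replicates. At 20% O2 the cells were kept for 6 days with Doxy (20% O2 + Doxy) or without it (20% O2 wo Doxy). At 3% O2 they were first kept for 4 days at 20% O2 and then for 3 days at 3% O2, again with Doxy (3% O2 + Doxy) or without it (3% O2 wo Doxy). The 3% O2 cells were therefore cultured for 7 days in all, and oxygen level and the added day cannot be told apart. Removal of Doxy and loss of FDX2 cannot be told apart either, because no library of a line without the construct was analysed here. The knockout cells were grown from single clones, so differences between clones are not covered by the spread between libraries.

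Ligands of this superfamily are secreted dimers. They bring together type II and type I receptor kinases on the target cell, and the receptors then phosphorylate SMAD transcription factors. TGF-beta and activins act mainly through SMAD2 and SMAD3, and BMPs through SMAD1, SMAD5 and SMAD9. GDF15 is a distant relative that signals through another receptor, GFRAL with its partner RET, and is known as a hormone of cellular stress. GDF15 and INHBE are both known target genes of ATF4, the transcription factor of the integrated stress response.

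Library totals ran from 24958386 to 34313637 assigned reads, with a median of 29621780. The FDX2 row itself held 2 to 13 reads in every library and was not higher with Doxy, and 70.9% of its exonic bases lay within other annotated genes, so it did not check the labels. Part of the raw reads of 20% O2 + Doxy replicates 1 and 2 was lost before deposit, but the counts of both are in the table. Of 10 epithelial and ovarian carcinoma markers, KRT7, KRT8, KRT18 and PAX8 were above 1 CPM in every library, whereas EPCAM, KRT19, CDH1 and MUC16 were at 3 reads or fewer. The mesenchymal markers VIM, CDH2, FN1 and SPARC were all abundant. Of the 4 leukocyte markers, PTPRC and CD3E did not exceed 2 reads and CD68 did not exceed 7 reads, while LYZ was at 0.863 to 2.46 CPM, and the red cell markers HBA1 and HBB were at 0. Of the fibroblast markers, COL1A1 was abundant, at 1069 to 2447 CPM, and LUM was at 0. Of the endothelial markers, CDH5 was at 22.1 to 51.4 CPM while PECAM1 did not exceed 5 reads and VWF did not exceed 6 reads. In 3 libraries (20% O2 + Doxy replicate 1, 3% O2 + Doxy replicate 3 and 3% O2 wo Doxy replicate 2) GC-rich transcripts read 0.41 to 0.45 log2 units higher, relative to AT-rich ones, than the average library, against -0.34 to 0.13 in the other 9. Without these 3 libraries 6, 4, 1, 6 and 4 of the 9 genes were called in the 4 comparisons and the test of their difference given below, where all 12 libraries gave 5, 3, 1, 5 and 4.

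Levels of different genes are compared here in TPM, which scales reads to transcript length and library size, and levels of one gene between conditions in CPM, which scales them to library size alone. With Doxy at 20% O2, FST and INHBA were the most abundant of the 10, at 87.2 ± 3.596 and 86.4 ± 5.43 TPM (mean ± SD, n = 3 here and below). Their ranges overlapped. TGFB1 followed at 52.2 ± 9.36 TPM. BMP2 and TGFB2 came next, at 12.7 ± 1.44 and 12.5 ± 0.514 TPM and again with overlapping ranges, and BMP4 was at 6.72 ± 0.938 TPM. GDF15, TGFB3 and INHBE were scarce, at 1.41 ± 0.528, 0.604 ± 0.0841 and 0.326 ± 0.137 TPM. INHBB had no read in any of these 3 libraries. Without Doxy at 20% O2, GDF15 stood at 16.6 ± 1.498 TPM, in the range of BMP2 at 16.02 ± 0.162 TPM and TGFB2 at 17.4 ± 0.168 TPM, and INHBA led at 160 ± 7.74 TPM.

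**Figure D1:**
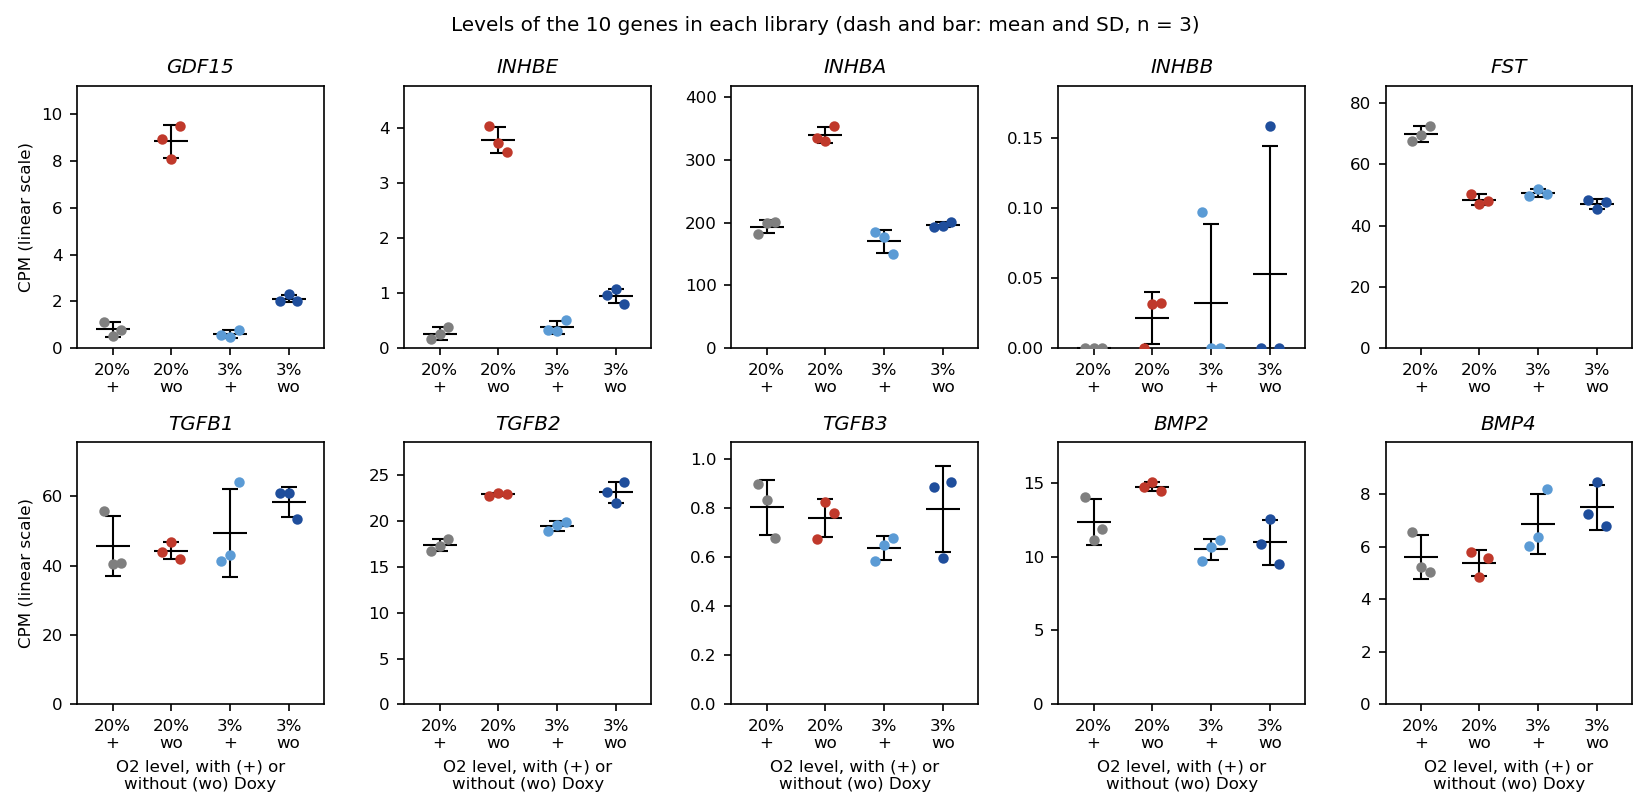
CPM (vertical axis, linear and starting at 0) of the 10 genes in each of the 12 libraries, by O2 level and by presence (+) or absence (wo) of Doxy; points are libraries, dashes and bars the mean and SD of 3. GDF15 and INHBE stand highest at 20% O2 without Doxy, at 8.09 to 9.49 and 3.58 to 4.04 CPM, and FST stands highest at 20% O2 with Doxy, at 67.5 to 72.6 CPM.

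The first comparison asked how the cells' transcripts changed when FDX2 was lost at 20% O2. GDF15, INHBE, INHBA and TGFB2 rose and FST fell. GDF15 and INHBE rose 10.98-fold and 13.97-fold from low levels, and INHBA, already the most abundant ligand, rose 1.75-fold. In all, 5 of the 9 tested genes changed at an adjusted p under 0.05 by edgeR's quasi-likelihood test (Benjamini-Hochberg adjustment over 16891 genes), in a comparison in which 35.3% of all tested genes were called, 17.6% higher and 17.7% lower. The 2 groups did not overlap for 6 of the 9, against 52.3% of all tested genes.

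GDF15 had 1.12, 0.507 and 0.764 CPM in the 20% O2 + Doxy libraries and 8.92, 8.09 and 9.49 CPM in the 20% O2 wo Doxy libraries. Every library without Doxy was far above every library with it. The log2 fold change was 3.46 (SE 0.253, 95% interval 2.90 to 4.01, adjusted p = 2.79e-06).

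INHBE encodes the beta E subunit of activin E, best known as a product of the liver. It had 0.160, 0.254 and 0.382 CPM with Doxy, which were 5, 7 and 13 reads, and 4.04, 3.73 and 3.58 CPM without it, which were 126, 118 and 110 reads. The groups were far apart, and the log2 fold change was 3.80 (SE 0.2997, 95% interval 3.14 to 4.46, adjusted p = 4.76e-06).

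INHBA encodes the beta A subunit, whose dimer is activin A. Its level was 182, 199 and 201 CPM with Doxy and 335, 329.6 and 354 CPM without it. The groups did not overlap, and the log2 fold change was 0.81 (SE 0.0746, 95% interval 0.64 to 0.97, adjusted p = 1.43e-05). The other beta subunit, INHBB, gave at most 4 reads in any of the 12 libraries and was not tested. A count of 0 leaves room for up to 3 reads, so its absence cannot be stated at this depth.

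FST, the soluble antagonist that binds activins and keeps them from their receptors, had 67.5, 69.7 and 72.6 CPM with Doxy and 50.4, 47.0 and 48.1 CPM without it. All 3 libraries without Doxy were lower. Its log2 fold change was -0.53 (SE 0.0508, 95% interval -0.64 to -0.42, adjusted p = 1.99e-05).

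Of the TGF-beta isoforms, which share receptors and are secreted in a latent form, TGFB2 alone passed the test, and the differences between the isoforms were not tested. Its level was 16.8, 17.3 and 18.0 CPM with Doxy and 22.7, 23.1 and 22.9 CPM without it, a small rise beyond the spread in both groups. The log2 fold change was 0.40 (SE 0.0548, adjusted p = 2.35e-04). Of the exonic bases of TGFB2, 26.6% also belonged to TGFB2-OT1 on the same strand, and reads there could not be assigned with certainty.

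TGFB1 had 55.7, 40.6 and 40.8 CPM with Doxy and 44.0, 46.8 and 42.1 CPM without it, so the groups overlapped. The high value was that of 20% O2 + Doxy replicate 1, 1 of the 3 libraries with more reads from GC-rich transcripts. Pooled over the annotated transcripts of TGFB1, 61.4% of the bases were G or C. The log2 fold change was -0.04 (95% interval -0.41 to 0.32), and 0.11 without that library. TGFB3 stood at 0.676 to 0.895 CPM with Doxy and 0.674 to 0.822 CPM without it, and its log2 fold change was -0.08 (95% interval -0.57 to 0.42).

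BMP2, a ligand of bone and early development, had 14.1, 11.1 and 11.8 CPM with Doxy and 14.7, 15.05 and 14.4 CPM without it. The groups did not overlap, but the gap between them was small beside the spread with Doxy. Its log2 fold change of 0.25 (SE 0.111, 95% interval 0.01 to 0.50) did not pass the test (adjusted p = 0.0984), and it did pass without 20% O2 + Doxy replicate 1, at 0.35 (adjusted p = 0.0343), and after a correction for GC content, at 0.32 (adjusted p = 0.00982). BMP4 stood at 5.03 to 6.55 CPM with Doxy and 4.84 to 5.78 CPM without it, and its log2 fold change was -0.05 (95% interval -0.38 to 0.27).

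Stretches of 150 bases just upstream of the transcription start are shown for GDF15, INHBA, TGFB2 and FST, since these moved at 20% O2 and had an entry in the RefSeq promoter table (GRCh38.p14). Of the 10 genes 8 had an entry, and INHBE and BMP2 had none. Capitals mark the motifs searched on both strands: the TATA box TATAAA, the CCAAT box CCAAT, the GC box GGGCGG, the C/EBP-ATF composite element TGATGNAA, the AP-1 site TGANTCA, the hypoxia response element cores ACGTG and GCGTG, and the SMAD box CAGAC. The first line is chr19:18386008-18386157 on the plus strand, the second chr7:41703091-41703240 on the minus strand, the third chr1:218345186-218345335 on the plus strand and the last chr5:53480479-53480628 on the plus strand. The stretches of GDF15, INHBA and FST lie within the GENCODE gene spans given above, which begin further upstream. That of TGFB2 lies upstream of its span.
GDF15: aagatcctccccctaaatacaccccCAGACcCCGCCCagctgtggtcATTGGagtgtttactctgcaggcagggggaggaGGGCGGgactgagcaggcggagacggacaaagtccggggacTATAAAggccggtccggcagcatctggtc
INHBA: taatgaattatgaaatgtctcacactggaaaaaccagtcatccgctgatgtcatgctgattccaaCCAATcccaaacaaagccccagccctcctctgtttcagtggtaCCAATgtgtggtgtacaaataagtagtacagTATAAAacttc
TGFB2: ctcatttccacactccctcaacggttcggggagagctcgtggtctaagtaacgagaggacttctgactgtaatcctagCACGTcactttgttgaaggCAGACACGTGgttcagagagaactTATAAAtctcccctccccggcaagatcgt
FST: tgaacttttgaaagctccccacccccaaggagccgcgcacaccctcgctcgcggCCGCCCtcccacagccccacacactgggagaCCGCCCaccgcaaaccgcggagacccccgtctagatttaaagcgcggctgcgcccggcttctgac

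The 3 genes shown here that rose each held the letters TATAAA in this stretch. The match began 29 bases before the start in GDF15 and in TGFB2 and 11 bases before it in INHBA. Of 35116 RefSeq starts, 6.71% held TATAAA within the same 150 bases. FST held none. A GC box, found at 36.8% of starts, lay 96 and 65 bases before the start of FST and 119 and 70 bases before that of GDF15. GDF15 also held a CCAAT box, found at 23.5% of starts, and INHBA held a pair. A SMAD box, found at 23.6% of starts, lay 125 bases before the start of GDF15 and 53 bases before that of TGFB2, where it shares 1 base with an ACGTG match on the opposite strand; ACGTG was found at 12.6% of starts. TGATGNAA, found at 1.9% of starts, and TGANTCA, found at 4.17%, did not occur in these 4 stretches. A match describes the letters only.

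The same question was put to cells moved to 3% O2. GDF15, INHBE and TGFB2 again rose without Doxy. None of the 9 tested genes fell, and neither INHBA nor FST passed the test. The 3 calls among 9 tested genes compare with 7.31% of all tested genes, 4.2% higher and 3.11% lower, and the groups did not overlap for 5 of the 9, against 24.6% of all tested genes. The 2 comparisons within an oxygen level share no library.

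GDF15 had 0.550, 0.458 and 0.776 CPM with Doxy and 2.01, 2.30 and 2.03 CPM without it at 3% O2. Each library without Doxy was above each library with it, and its log2 fold change was 1.81 (SE 0.259, 95% interval 1.24 to 2.38, adjusted p = 0.00232). INHBE had 10, 8 and 16 reads with Doxy and 24, 27 and 26 reads without it, which is 0.324, 0.306 and 0.517 CPM against 0.966, 1.07 and 0.811 CPM. The groups did not overlap, and the log2 fold change was 1.29 (SE 0.292, 95% interval 0.65 to 1.93, adjusted p = 0.0226). The INHBE call was lost when 3% O2 + Doxy replicate 1 (adjusted p = 0.0899), 3% O2 + Doxy replicate 2 (0.0998) or 3% O2 wo Doxy replicate 2 (0.0785) was left out.

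TGFB2 had 18.9, 19.6 and 19.9 CPM with Doxy and 23.2, 22.02 and 24.3 CPM without it. The libraries without Doxy were all higher, by a log2 fold change of 0.25 (SE 0.0549, adjusted p = 0.0200). That call was lost when any of 3% O2 + Doxy replicates 1 and 2 and 3% O2 wo Doxy replicates 1 and 3 was left out, with adjusted p from 0.0628 to 0.0904. The INHBE and TGFB2 calls were also lost with no filter on low counts (adjusted p = 0.0512 and 0.186) and in a fit to the 6 libraries at 3% O2 alone (0.0874 and 0.131).

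INHBA had 185, 177 and 149.9 CPM with Doxy and 194, 195 and 202 CPM without it. The groups did not overlap, but the log2 fold change of 0.21 (SE 0.0744, 95% interval 0.04 to 0.37) did not pass (adjusted p = 0.1252), and it did pass after a correction for GC content, at 0.24 (adjusted p = 0.0154). FST had 49.7, 52.0 and 50.2 CPM with Doxy and 48.5, 45.4 and 47.6 CPM without it. These groups, too, did not overlap, and the log2 fold change was -0.10 (95% interval -0.21 to 0.01, adjusted p = 0.258). TGFB1, TGFB3, BMP2 and BMP4 overlapped between the groups and had log2 fold changes of 0.24, 0.32, 0.06 and 0.12. Without 3% O2 + Doxy replicate 3, another of the 3 libraries with more GC-rich reads, that of TGFB1 was 0.47 (adjusted p = 0.0497), and after correction for GC content it was 0.18 (adjusted p = 0.159).

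Whether the response to FDX2 loss differed with oxygen was tested as the difference of the log2 fold changes, 3% O2 minus 20% O2. It differed for 4 of the 9 tested genes, against 7.29% of all tested genes, 3.21% with a positive and 4.08% with a negative difference. The responses of GDF15, INHBE and INHBA were smaller at 3% O2, and FST, which fell at 20% O2, had a response closer to 0. The difference was -1.64 for GDF15 (SE 0.356, 95% interval -2.43 to -0.86, adjusted p = 0.0202). It was -2.51 for INHBE (SE 0.415, 95% interval -3.42 to -1.60, adjusted p = 0.00531) and -0.60 for INHBA (SE 0.105, 95% interval -0.83 to -0.37, adjusted p = 0.00705). For FST it was 0.42 (SE 0.0720, 95% interval 0.27 to 0.58, adjusted p = 0.00612). The GDF15 call was lost without 20% O2 wo Doxy replicate 3, at -1.59 (adjusted p = 0.0573). For TGFB2, which passed at both oxygen levels, the difference was -0.15 (95% interval -0.32 to 0.02, adjusted p = 0.279), so a difference of this size was not detectable here. For TGFB1, TGFB3, BMP2 and BMP4 the interval of the difference included 0.

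**Figure D2:**
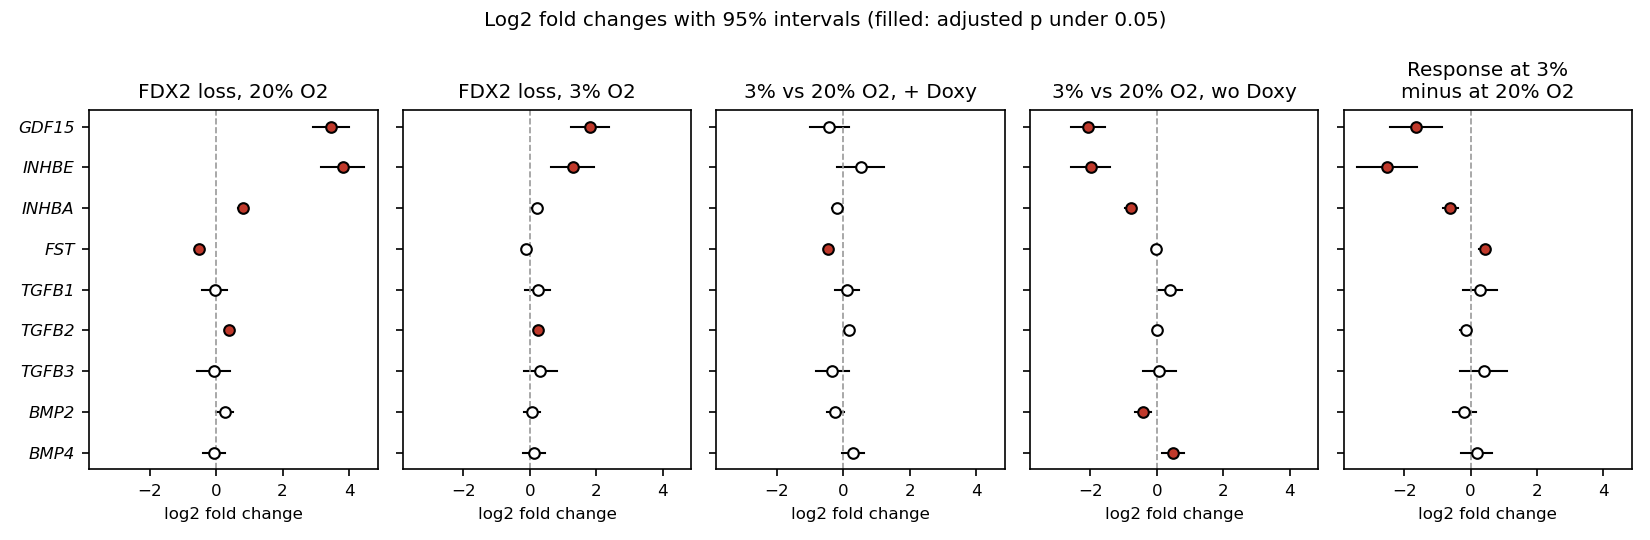
Log2 fold changes (horizontal axis) of the 9 tested genes in the 4 comparisons and in the difference of the responses, with 95% intervals; filled points have an adjusted p under 0.05. For GDF15 the estimate is 3.46 at 20% O2 and 1.81 at 3% O2, and for INHBE 3.80 and 1.29.

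The effect of 3% O2 itself was read in cells with Doxy, against the same 20% O2 + Doxy libraries used above. FST was the single gene of the 9 that changed, against 2.02% of all tested genes, 1.63% higher and 0.385% lower. It had 67.5, 69.7 and 72.6 CPM at 20% O2 and 49.7, 52.0 and 50.2 CPM at 3% O2, with no overlap and a log2 fold change of -0.47 (SE 0.0508, 95% interval -0.58 to -0.35, adjusted p = 4.58e-04). Groups did not overlap for 3 of the 9, against 15.4% of all tested genes; the other 2 were TGFB2, at a log2 fold change of 0.16 (95% interval 0.04 to 0.29, adjusted p = 0.196), and BMP2, at -0.24 (95% interval -0.48 to 0.01, adjusted p = 0.415). GDF15 was at -0.42 (95% interval -1.01 to 0.18) and INHBE at 0.52 (95% interval -0.18 to 1.22), and both overlapped between the groups.

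Without Doxy, cells at 3% O2 differed from cells at 20% O2 in 5 of the 9 genes, against 25.8% of all tested genes, 13.9% higher and 11.9% lower. GDF15, INHBE, INHBA and BMP2 were lower at 3% O2 and BMP4 was higher. This comparison uses the same 20% O2 wo Doxy and 3% O2 wo Doxy libraries as the comparisons of FDX2 loss, so its values are no independent evidence on them. The log2 fold change was -2.06 for GDF15 (SE 0.233, adjusted p = 1.66e-04), -1.99 for INHBE (SE 0.267, adjusted p = 4.64e-04) and -0.79 for INHBA (SE 0.0746, adjusted p = 5.49e-05).

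BMP2 had 14.7, 15.05 and 14.4 CPM at 20% O2 and 10.9, 12.5 and 9.51 CPM at 3% O2, all lower. Its log2 fold change was -0.43 (SE 0.112, adjusted p = 0.0181), and the call was lost without 3% O2 wo Doxy replicate 3 (adjusted p = 0.0669). BMP4 had 5.78, 4.84 and 5.56 CPM at 20% O2 and 7.25, 8.45 and 6.77 CPM at 3% O2, all higher. Its log2 fold change was 0.47 (SE 0.149, adjusted p = 0.0387). With the replicate number as a block in a fit to these 6 libraries, the BMP4 call was lost (adjusted p = 0.0664), as it was without any of 5 of the 6 libraries, with adjusted p from 0.0540 to 0.141. TGFB1 had 44.0, 46.8 and 42.1 CPM at 20% O2 and 60.9, 60.8 and 53.5 CPM at 3% O2. These groups did not overlap, and the log2 fold change was 0.40 (SE 0.167, adjusted p = 0.103). It passed in a fit to these 6 libraries alone, at 0.38 with the block (adjusted p = 0.00763) and without it (adjusted p = 0.00719), and was 0.09 after correction for GC content (adjusted p = 0.459). In total, groups did not overlap for 6 of the 9, against 49.4% of all tested genes.

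Ordered by level over the 4 conditions, GDF15 was highest at 20% O2 wo Doxy and next at 3% O2 wo Doxy, each clear of the others, while both conditions with Doxy overlapped. INHBE had the same order. INHBA was clear of the others only at 20% O2 wo Doxy; 3% O2 wo Doxy overlapped 20% O2 + Doxy, which overlapped 3% O2 + Doxy. FST was clear only at 20% O2 + Doxy, and among the other 3 conditions each neighbour overlapped the next, from 45.4 to 52.0 CPM. For TGFB2 both conditions without Doxy overlapped and stood above 3% O2 + Doxy, which stood above 20% O2 + Doxy. The epithelial marker sum was 1049 to 1419 CPM at 20% O2 + Doxy and 847 to 903 CPM at 20% O2 wo Doxy, and the mesenchymal sum 3860 to 4374 and 3251 to 3371 CPM. The part of this shift in the results was not tested. In bulk RNA, fewer cells making a transcript and less of it per cell cannot be told apart.

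The rest of the pathway was read from 8 lists of genes. Over all tested genes, 17.6% were higher and 17.7% lower on FDX2 loss at 20% O2, with a median log2 fold change of 0.01, and 4.2% were higher and 3.11% lower at 3% O2, with a median of 0.04. Of 24 other ligands of the superfamily, 20 did not pass the low count filter and reached at most 15 reads in any library, among them the inhibin alpha subunit INHA. Of the 4 tested, AMH, the anti-Mullerian hormone, and GDF11 fell on FDX2 loss at 20% O2, with log2 fold changes of -1.24 (adjusted p = 0.0160) and -0.38 (adjusted p = 0.00536). AMH ranged from 7.26 to 14.4 CPM with Doxy and from 3.48 to 4.65 CPM without it. On FDX2 loss at 3% O2 none of the 4 was called by edgeR, where 1 had an unadjusted p under 0.05.

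The receptors gave no common direction. GFRAL, the receptor of GDF15, had no read in any library, and RET at most 4. Of 18 receptors and co-receptors 13 were tested, and 2 rose and 3 fell on FDX2 loss at 20% O2, with a median log2 fold change of -0.08 beside 0.01 over all tested genes. These 5 calls among 13 genes are a share near the 35.3% called over all tested genes. After correction for GC content 9 of the 13 were called at 20% O2, 5 higher and 4 lower. The share of all tested genes called after this correction was not counted at either oxygen level, so these counts are no result about the receptors. BMPR1B, a type I receptor for BMPs, rose by 1.19 (adjusted p = 0.00149) from 2.17 to 2.88 CPM to 5.20 to 6.34 CPM, and ACVR1, another type I receptor, rose by 0.49 (adjusted p = 9.18e-05). ENG, a co-receptor, fell by 0.78 (adjusted p = 0.0135), and ACVR2B, a type II receptor that binds activins, fell by 0.64 (adjusted p = 2.75e-04). ACVR2B was also the single receptor called at 3% O2, at -0.35 (adjusted p = 0.0395). No receptor was called there with the replicate block, in a fit to the 6 libraries at 3% O2 alone or at an adjusted p under 0.01, and 4 were called after correction for GC content.

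Among the 12 SMADs and their regulators, all of them tested, 2 rose and 2 fell at 20% O2 and none was called at 3% O2 by edgeR, where 3 had an unadjusted p under 0.05 and DESeq2's Wald test called 1. The 4 calls among 12 genes at 20% O2 are a share near the 35.3% called over all tested genes. SKIL, a repressor of SMAD signalling that is itself a target of it, rose by 0.66 (adjusted p = 6.02e-04) and SMAD3 by 0.25 (adjusted p = 0.0106). SMURF2, a ubiquitin ligase, fell by 0.31 (adjusted p = 6.01e-04) and SKI by 0.51 (adjusted p = 0.0456). After correction for GC content 4 members of this list were called at 3% O2, with no share over all tested genes counted beside them.

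Among the antagonists other than FST, the calls on FDX2 loss were all in 1 direction. Of 16 genes, the antagonists and the pseudoreceptor BAMBI, 7 were tested, 4 rose at 20% O2, 3 rose at 3% O2 and none fell in either. Over all tested genes 17.6% were higher and 17.7% lower at 20% O2, and 4.2% higher and 3.11% lower at 3% O2. The medians were 0.27 and 0.30, beside 0.01 and 0.04 over all tested genes. BMPER, a BMP-binding protein, had 2.97 to 3.70 CPM with Doxy and 10.2 to 11.2 CPM without it at 20% O2, and its log2 fold changes were 1.70 at 20% O2 (adjusted p = 7.54e-07) and 1.32 at 3% O2 (adjusted p = 7.06e-05). FSTL3, which like FST binds activins, rose by 0.91 (adjusted p = 5.48e-05) and 0.44 (adjusted p = 0.0237), where FST fell at 20% O2. BAMBI rose by 2.02 at 20% O2 (adjusted p = 0.00112), from only 3 to 5 reads with Doxy to 17 to 20 reads without it. Fitted to the 6 libraries at 3% O2 alone, the count there was 1.

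For latent TGF-beta storage and activation, 13 of 17 genes were tested. At 20% O2 3 of the 13 were called, against 35.3% of all tested genes. ITGB8, an integrin subunit that activates latent TGF-beta, fell by 0.79 at 20% O2 (adjusted p = 1.40e-05), and ITGAV, its partner, and THBS1 rose by 0.31 and 0.30 (adjusted p = 0.0246 and 0.00962). None of the list was called at 3% O2 by edgeR, against 7.31% of all tested genes. There 7 had an unadjusted p under 0.05, and DESeq2's Wald test called 1. After correction for GC content 7 rose at 3% O2, and 8 changed at 20% O2 in place of 3. The share of all tested genes called after this correction was not counted, so these counts are no result about the list.

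**Figure D3:**
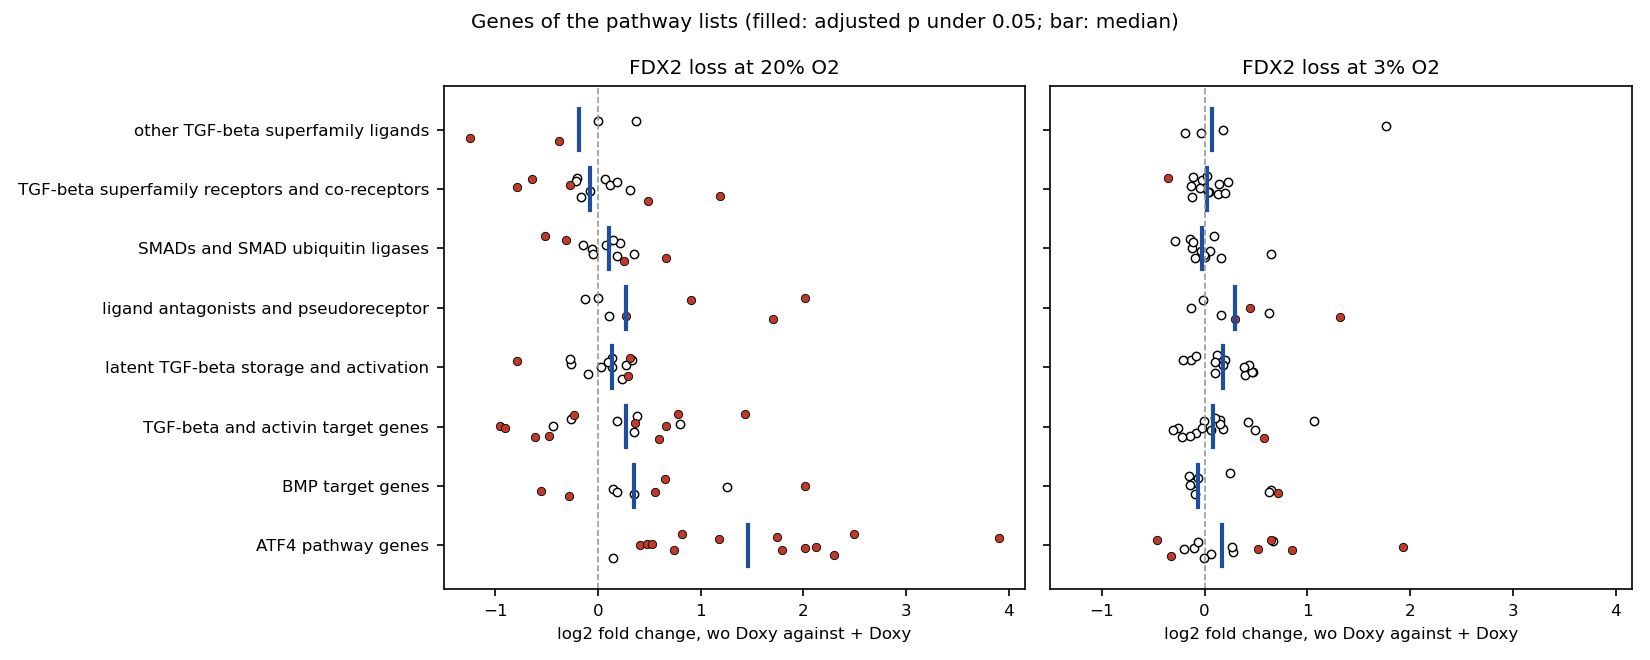
Log2 fold changes on FDX2 loss (horizontal axis) for the tested genes of the 8 lists at 20% O2 (left) and 3% O2 (right); filled points have an adjusted p under 0.05 and blue bars are medians. The median of the ATF4 pathway list is 1.46 at 20% O2 and 0.17 at 3% O2, and the receptor and SMAD lists hold genes on both sides of 0 at 20% O2.

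Target genes of TGF-beta and activin split. Of 16, all tested, 5 rose and 5 fell on FDX2 loss at 20% O2, beside 17.6% higher and 17.7% lower over all tested genes, and the median was 0.27 beside 0.01. CDKN2B, a cell cycle inhibitor, rose by 0.78 (adjusted p = 3.18e-05), and SKIL, described above, is in this list too. IGFBP3, which binds insulin-like growth factors, fell by 0.96 (adjusted p = 1.30e-04), and TGM2, a transglutaminase, by 0.91 (adjusted p = 3.87e-04). At 3% O2 1 of the 16 was called, and the response of CDKN2B was smaller there by a difference of -0.61 (adjusted p = 0.0104). The single call at 3% O2 was lost with the replicate block and in a fit to the 6 libraries at 3% O2 alone. Without the 3 libraries with more GC-rich reads 4 of the list rose at 3% O2, and the share over all tested genes was not counted there. Of 11 BMP targets 9 were tested, and 3 rose and 2 fell at 20% O2, beside 17.6% higher and 17.7% lower over all tested genes. The median was 0.35 beside 0.01. ID1, a common readout of BMP signalling, fell by 0.55 (adjusted p = 0.0237) and ID3 by 0.28 (adjusted p = 0.0474). HEY1 and ATOH8 rose by 0.65 and 0.56 (adjusted p = 1.74e-04 and 0.0369). BAMBI, which is in this list too, rose from few reads. With the replicate number as a block, 2 of the BMP targets rose and none fell.

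ATF4 pathway genes were listed because GDF15 and INHBE are known targets of ATF4. Of 15 genes 14 were tested, and 13 rose and none fell on FDX2 loss at 20% O2, beside 17.6% higher and 17.7% lower over all tested genes. The median log2 fold change was 1.46 beside 0.01. NUPR1, a stress-induced cofactor, rose by 3.90 (adjusted p = 6.63e-06), DDIT3, the transcription factor CHOP, by 2.49 (adjusted p = 1.49e-09), ATF3 by 2.29 (adjusted p = 1.86e-06) and ASNS, asparagine synthetase, by 2.13 (adjusted p = 5.30e-05). DDIT3 had 7.76 to 8.26 CPM with Doxy and 44.2 to 45.7 CPM without it. At 3% O2 4 rose and 2 fell, beside 4.2% higher and 3.11% lower over all tested genes. The median was 0.17 beside 0.04. NUPR1, DDIT3, ATF3 and ATF4 rose by 1.93, 0.85, 0.65 and 0.52. VLDLR and PSAT1, which rose by 0.53 and 0.48 at 20% O2, fell by 0.47 and 0.33 at 3% O2. The difference of the responses, 3% O2 minus 20% O2, was called negative for 10 of the 14 and positive for none. Over all tested genes 4.08% had a negative and 3.21% a positive difference. The median difference was -1.42 beside 0.05 over all tested genes. In a fit to the 6 libraries at 3% O2 alone, 1 rose and 1 fell.

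Genes whose levels most resembled those of the 4 ligands that rose were taken by Pearson's correlation of log2 CPM over the 12 libraries, with 12830 genes of 1 CPM or more on average ranked. This is a description, since the 12 points share 4 conditions. For GDF15 they were GRB10, MDK, TTC28, CABLES1 and HLA-B, with r from 0.984 to 0.989. For INHBE they were PCLO, CHD2, MMP12, OPTN and ZSCAN31, with r from 0.981 to 0.985. For INHBA they were CSGALNACT2, GAS5, SPX, SNAPC1 and LRRC49, with r from 0.986 to 0.991, and for TGFB2 ADTRP, LINC02577, MIR3142HG, LAMA4 and ATP2B4, with r from 0.968 to 0.973.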

How the data were processed

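Poly(A) RNA of 12 ES2 libraries was sequenced on a DNBSEQ-T7. The authors deposited raw read counts per gene, not normalized, for 58735 Ensembl genes. The submitters' processing notes name STAR, featureCounts, DESeq2 and GRCh38. Versions, annotation and strand setting are not given in the sources used here. All 58735 identifiers matched GENCODE release 29, which gave exon lengths and GC content.

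Genes were filtered with edgeR's filterByExpr (minimum count 10, total 15), leaving 16891. Counts were scaled by TMM and tested with the quasi-likelihood test in edgeR 4.0.16 (R 4.3.3) on 4 condition means over all 12 libraries, with 8 residual degrees of freedom and Benjamini-Hochberg adjustment over all tested genes. A gene was called at an adjusted p under 0.05. Intervals are 95%. Library totals were 24958386 to 34313637 reads. CPM used the totals over the tested genes, scaled by the TMM factors, and TPM used exon length. Prior count was 0.125. Scripts were tested on simulated data.

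The 10 genes, the 8 lists and the tests were chosen with earlier results of these data known. Named genes were the 10, list genes called in a comparison (up to 4 per list and direction, by size of the log2 fold change), and the 5 genes most correlated with GDF15, INHBE, INHBA and TGFB2, leaving out clone-style names. A gene of the lists that the rule would name is not reported here. No 2 libraries were identical, and the spread between libraries of a condition exceeded counting noise in every condition (median chi-square per degree of freedom 1.30 to 3.90, against 0.693 from sampling alone). Replicate numbers were checked as pairs. Deviations of same-numbered libraries correlated at 0.247 to 0.363 between 20% O2 wo Doxy and 3% O2 wo Doxy, over all 3 pairs, so these were also fitted with a replicate block. In the other comparisons at least 1 pair was under 0.1. Alternatives were DESeq2 1.42.0 (size factors or Wald test), other filters and thresholds, a prior count of 2, a replicate block, only the libraries compared, and each library left out. A GC correction (lowess, span 0.3) and leaving out the 3 libraries with the steepest GC trend were chosen after seeing the data. The promoter table was searched with Python 3.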

Additional observations from a re-analysis of the deposited data

Results flagged for a closer look

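Responses to FDX2 loss that differed between 20% and 3% O2 by the interaction test were marked for a closer look. GDF15 rose at both oxygen levels, but by less at 3% O2 (difference -1.64 log2 units, adjusted p = 0.0202 by edgeR). INHBE also rose at both, with a difference of -2.51 (adjusted p = 0.00531). INHBA rose at 20% O2 and did not pass at 3% O2, with a difference of -0.60 (adjusted p = 0.00705). FST fell at 20% O2 and did not pass at 3% O2, with a difference of 0.42 (adjusted p = 0.00612), and its level with Doxy was itself lower at 3% O2. In all 4 genes the 3% O2 cells had also been cultured a day longer, which cannot be told apart from oxygen.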

How the results depend on the processing

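The calls of GDF15, INHBE, INHBA, TGFB2 and FST on FDX2 loss at 20% O2 held under each alternative of the fit, as did that of GDF15 at 3% O2 and those of INHBA, INHBE and FST in the interaction test. INHBE has fewer than 10 reads in some libraries and so could not be fitted with at least 10 reads in every library. A minimum of 2-fold besides the adjusted p left 2 of the 5 genes called at 20% O2, GDF15 and INHBE, and lost INHBA, TGFB2 and FST, and it lost INHBA and FST in the interaction test. At 3% O2 the 3 calls fell to 1 without a filter, with only the libraries compared and at an adjusted p under 0.01, and ran from 1 to 4 when a library was left out. With a minimum of 2-fold, the count was 0 for 3% O2 with Doxy, 2 in cells without Doxy at 3% O2 and 2 for the interaction; at an adjusted p under 0.01 it was 3 for 3% O2 without Doxy. Leaving out a library gave 5 to 6 calls at 20% O2, 1 at 3% O2 with Doxy, 4 at 3% O2 without Doxy and 3 to 4 for the interaction. With a replicate block over the 12 libraries the counts were 5, 2, 1, 4 and 4, in the order of the 4 comparisons and the interaction, and INHBE at 3% O2 was lost (adjusted p = 0.0516), although same-numbered libraries share only a number there. The cause of these changes was not tested.

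Signs turned only for genes that were not called. For TGFB2 at 3% O2 without Doxy the log2 fold change was -0.0022 with DESeq2 size factors, -0.0026 by DESeq2's Wald test and -0.0095 with at least 10 reads in every library, and from -0.018 to 0.052 with a library left out. After correction for GC content, TGFB1 on FDX2 loss at 20% O2 was 0.20, BMP4 0.044, TGFB3 at 3% O2 without Doxy -0.016, and TGFB1 in the interaction test -0.014. With both this correction and the replicate block TGFB3 was -0.033. Without the 3 libraries with the steepest GC trend, TGFB1 on FDX2 loss at 20% O2 was 0.11, TGFB3 2.6e-04 and BMP4 0.063, BMP2 on FDX2 loss at 3% O2 -0.017 and INHBE at 3% O2 with Doxy -0.029. With a library left out, FDX2 loss at 20% O2 gave -0.13 to 0.11 for TGFB1, -0.19 to 0.0039 for TGFB3 and -0.13 to 0.062 for BMP4, FDX2 loss at 3% O2 gave -0.045 to 0.16 for BMP2, 3% O2 with Doxy gave -0.12 to 0.27 for TGFB1 and 3% O2 without Doxy gave -0.034 to 0.24 for TGFB3. Of 696 counts of called list genes recomputed under the alternatives, 516 stayed within 1.5 times and 180 did not. Shares called over all tested genes were counted for the main fit only. The ATF4 pathway list had 8 to 14 higher and none lower at 20% O2 over its alternatives, and the smallest count was that with a minimum of 2-fold.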

Other observations

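Per length, the ratio of INHBA to its antagonist FST was followed as well, a measure chosen after their values were seen. It was 0.963, 1.02 and 0.988 in the 20% O2 + Doxy libraries and 2.37, 2.51 and 2.63 in the 20% O2 wo Doxy libraries. At 3% O2 it was 1.33, 1.22 and 1.07 with Doxy and 1.43, 1.54 and 1.51 without it. The ratio of TPM values was thus higher without Doxy at both oxygen levels, with no overlap between groups. This had to follow from the levels given above, where INHBA was higher and FST lower without overlap at both oxygen levels. The ratio therefore adds no separate evidence. At 3% O2 neither INHBA nor FST passed edgeR's test on FDX2 loss. The ratio itself was not tested, and the share of other gene pairs without overlap was not counted.

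Some genes of the lists differed between 3% and 20% O2 in cells that kept Doxy, and each of those named here was also called on FDX2 loss at 20% O2. They were 2 of 14 tested ATF4 pathway genes and 3 of 16 TGF-beta and activin targets. Over all tested genes 1.63% were higher and 0.385% lower at 3% O2 with Doxy. On FDX2 loss at 20% O2 the directions differed: DDIT4, VLDLR and BHLHE40 rose, while IGFBP3 and TGFBI fell by 0.96 and 0.23. DDIT4, a stress gene that is also known to respond to hypoxia, was higher at 3% O2 by 2.71 (adjusted p = 3.01e-06 by edgeR), and VLDLR, a lipoprotein receptor, by 1.27 (adjusted p = 3.38e-06). Of the TGF-beta and activin targets, BHLHE40, IGFBP3 and TGFBI were higher by 1.32, 1.19 and 0.79 (adjusted p = 2.85e-04, 1.69e-04 and 2.94e-05), and no member of that list was lower.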
